A study of Macaca mulatta with 23 samples.

Results

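The pairs described here are neighbouring cytosines whose methylation calls contradict each other. A pair was kept when 2 autosomal positions of the deposited table lay exactly 1 bp apart, with no further position 1 bp beyond either, and when the mean over the monkeys was under 20% at one position and over 80% at the other. Of 94158 isolated autosomal pairs, 3429 met this rule (3.64%), which is 6858 of the 444312 positions in the table. The first position, at the lower coordinate, was the low one in 1711 pairs, and the second in 1718. Members were thus selected on the mean levels themselves, so the levels and the size of the gap are a description, with no test.

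The table comes from reduced representation bisulfite sequencing (RRBS) of the central nucleus of the amygdala, a brain region that takes part in fear and anxiety responses. It holds 23 young rhesus monkeys (Macaca mulatta), 12 sampled in the right and 11 in the left hemisphere, with 1 library each and no treatment or genotype given in the labels. Each monkey had an anxious temperament score, from -1.48 to 1.43, and an age, from 1.1 to 2.13 years. Coordinates are given in the human build hg19, the build that the submitters' processing notes name for these monkey reads. Below, each monkey goes by its hemisphere and a number. There were 12 animals whose identifier begins with r and 11 whose identifier begins with B, and the sources used here do not explain the letters.

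In a CpG, the sequence that carries most DNA methylation in mammals, a cytosine on one strand stands opposite the guanine that follows the cytosine of the other strand. After each cell division the maintenance methyltransferase DNMT1 copies the mark from the old strand to the new one, so both cytosines of a CpG are usually methylated together or bare together. Neighbouring calls 1 bp apart are therefore read here as the cytosines of both strands of 1 CpG, the lower coordinate on the plus strand. Bisulfite turns bare cytosine into uracil, which is sequenced as thymine, so a thymine of the genome cannot be told from a bare cytosine. If the monkey lacks the CpG that the human genome has, the cytosine left over no longer stands before a guanine, and methylation there is generally low in mammals.

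The selection rule calls a discordant pair the mark of a base that differs from the human reference. No base of either genome was read here, so that was not tested. The pairs are therefore called discordant, without a statement about their bases. Their place along the DNA that was measured is described below.

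A pair of libraries stood apart. In right 9, 78.8% of low positions were exactly 0 and 70.2% of high positions exactly 100%, and both values were present at 54.2% of members. In left 3 both were present at 31.3%, and in the other monkeys at 71.9% to 99.0%. The table gives no read depth, so the precision of a single level is unknown. Without left 3 and right 9, 3423 pairs met the rule.

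Most isolated pairs were concordant. Both positions were under 20% in 57966 pairs (61.6%) and both over 80% in 12240 (13.0%), while 20523 (21.8%) fell in neither class and were not discordant. The median gap between the 2 means was 86.4 percentage points in discordant pairs, from 61.1 to 98.1, against 0.632 points in pairs low at both positions and 1.64 points in pairs high at both. The low position of a discordant pair had a median mean level of 4.77%, with quartiles of 3.59% and 6.59%. The high position had a median of 92.2%, with quartiles of 87.2% and 95.7%. Most low positions thus lay far under the threshold, with a smaller number reaching up to it.

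**Figure D1:**
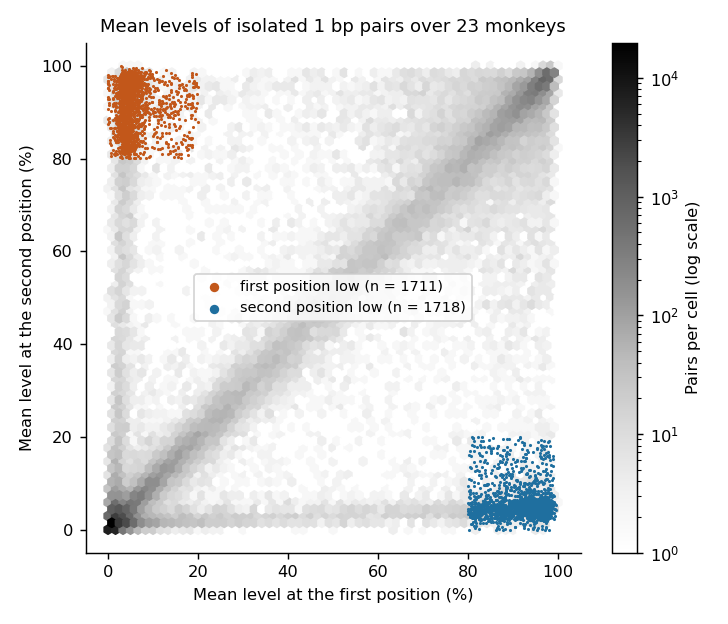
Mean level over 23 monkeys at the first (x axis, %) and the second position (y axis, %) of every isolated autosomal pair; grey cells count pairs on a log scale and coloured points are the 1711 and 1718 discordant pairs. The diagonal holds the concordant pairs, and a narrow band along each axis near 5% runs on below the 80% threshold.

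Members nearest to a threshold were picked out, as were pairs that just missed it. With thresholds of 30% and 70%, 4707 pairs were discordant. At chromosome 4, 156419445 and 156419446, the low position averaged 20.0% ± 16.0 (SD, n = 23) and the high one 87.9% ± 11.2 (SD, n = 20). At chromosome 18, 10444755 and 10444756, the low position averaged 4.05% ± 2.94 (SD, n = 22) and the high one lay just over 80%, with an SD of 10.5 points (n = 22). Just outside, the pairs at chromosome 4, 864531, chromosome 11, 55783273 and chromosome 12, 51101669 had low means of 4.86%, 4.27% and 6.95% and stood at exactly 80% on the other side, which the rule leaves out.

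Discordant pairs lay at the ends of runs of measured positions, with the low cytosine turned towards the run. When the first position was low, the nearest further position lay a median of 20 bp away on the lower side and 12139 bp away on the upper side. When the second position was low, the order was the opposite, with 20 bp on the upper side and 13192 bp on the lower. With a neighbour defined as a further measured position within 300 bp, 2867 of the 3429 members (83.6%) had neighbours only on the side of their low position. In 7 (0.204%) the neighbours were only on the side of the high position, in 518 (15.1%) they were on both sides, and 37 had none.

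These places were not used by the rule, and they can be set beside those of the other pairs. Neighbours on 1 side only were found for 83.8% of discordant pairs and for 14.9% of the isolated pairs that were not discordant. Pairs high at both positions had neighbours on both sides in 95.1% of cases. Of all pairs with neighbours on 1 side and with an outer position, the one away from the run, over 80%, 2867 of 3697 (77.5%) had an inner position under 20%. With neighbours on both sides, 265 of 14083 pairs whose first position was over 80% had a second position under 20% (1.88%), and 253 of 14066 showed the reverse (1.80%). When the inner position was over 80%, the outer one was under 20% in 7 of 623 pairs with neighbours on 1 side (1.12%). These shares are over pairs, many of which share a run and all of which share the same 23 libraries, and no test was made of them.

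**Figure D2:**
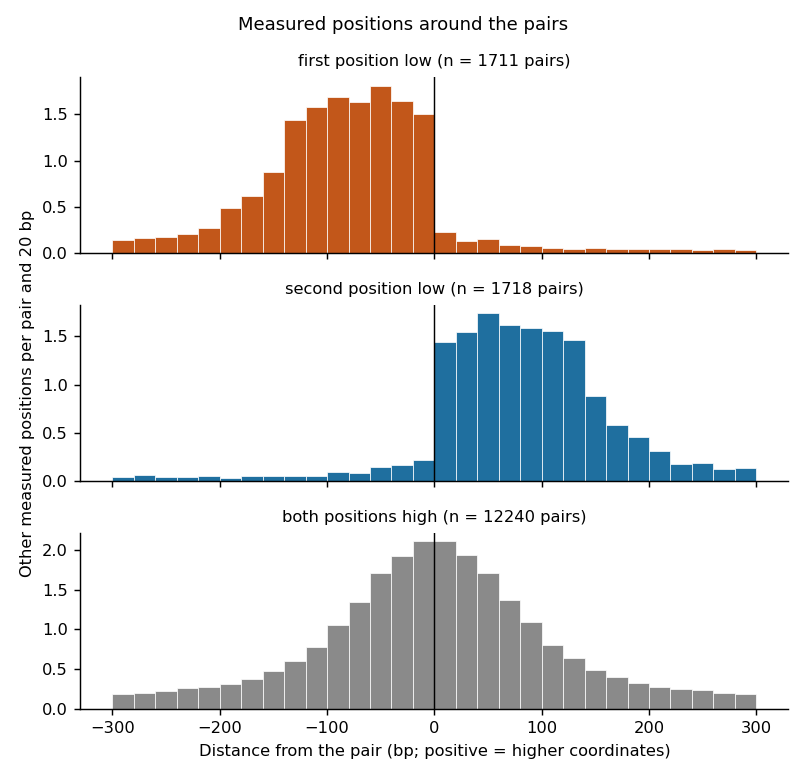
Number of other measured positions per pair in 20 bp bins, by distance from the pair (bp, positive towards higher coordinates), for pairs with the first position low, pairs with the second position low and pairs high at both. Positions lie below the pairs of the first kind and above those of the second, and are symmetric around pairs high at both positions.

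Many members were the ends of the same run. A run here is a chain of positions with gaps of at most 300 bp. In 797 runs, discordant pairs formed both ends, the second position being low at the lower end and the first at the upper end, and these runs held 1594 members (46.5%). Their span had a median of 140 bp, with quartiles of 122 and 179 bp, and the shortest was 102 bp. The runs held a median of 14 positions. Per the labels' protocols, fragments of 200 to 400 bp with their adapters attached were cut from the gel, and the length of the adapters is not given.

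The span of a run went with the number of its discordant ends. Among runs that began and ended with an isolated pair and had an outermost level over 80% at both ends, 168 spanned up to 100 bp and 993 spanned more than that. Of the 168 shorter runs, 0 had a discordant pair at both ends, 110 (65.5%) had it at 1 end and 58 at neither. Of the 993 longer runs, 797 (80.3%) had it at both ends, 187 (18.8%) at 1 end and 9 at neither. The share with both ends discordant was 77.8% from there to 140 bp, 81.3% at 141 to 180 bp, 92.0% at 181 to 220 bp and 73.6% above. The change fell between neighbouring 10 bp bins: 0 of 31 runs of 91 to 100 bp had both ends discordant, and in the bin after it, up to 110 bp, 81 of 113 had. The limit at 100 bp was chosen after seeing these counts.

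**Figure D3:**
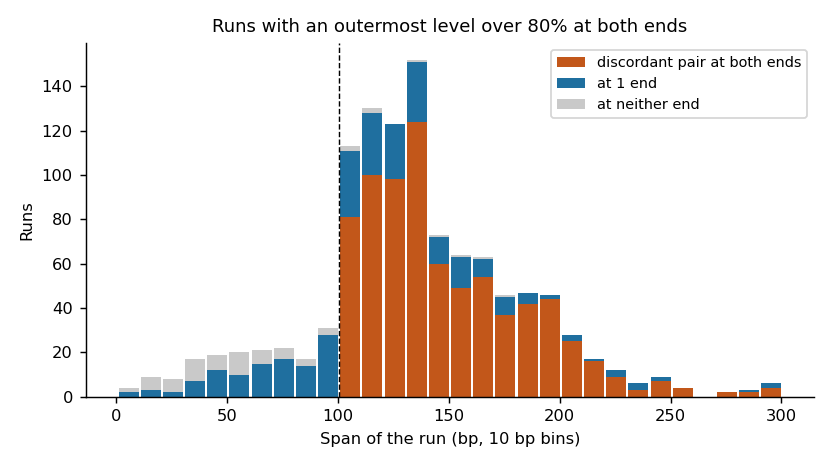
Runs with an outermost level over 80% at both ends, by span (bp, 10 bp bins, up to 300 bp), split by whether a discordant pair stood at both ends, at 1 end or at neither. Left of the dashed line, at spans up to 100 bp, 0 of 168 runs had a discordant pair at both ends.

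MspI, the enzyme of these libraries, cuts at CCGG and leaves a short overhang that holds the CpG. End repair, which the labels' protocols name, fills such an overhang with new nucleotides, and in RRBS a cytosine filled in this way carries no methyl group of the animal. Many RRBS workflows cut the last bases off reads for this reason, and whether this was done here is not given in the sources used. The table holds neither reads nor fragment ends, so the part of filled-in cytosines in the discordance was not tested. The part of bases that differ between the species was not tested either.

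The DNA around the members was methylated. Other positions within 100 bp, present for 3222 members, averaged a median of 81.9%, against 74.7% around pairs high at both positions and 1.33% around pairs low at both. They averaged over 80% at 53.9% of those members and under 20% at 2.20%. Discordant pairs had fewer positions within 100 bp, a median of 8, against 14 for pairs high at both and 23 for pairs low at both. Within that distance 80.7% of discordant pairs had neighbours on 1 side only, while 93.6% of pairs high at both had them on both sides. The lower count thus partly restates the place of the members.

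Members were found on all 22 autosomes. Chromosome 1 held the most, 369, or 4.01% of its isolated pairs. The share ran from 2.41% on chromosome 13 to 6.06% on chromosome 21, which had 43 members among 709 pairs.

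Among the 452 members with values in all 23 monkeys, 4 of the 5 with the widest gap lay at the end of a run. At chromosome 21, 39087107 and 39087108 (band 21q22.13), the first position ran from 0 to 6% with a median of 3%, and the second from 92% to 100% with a median of 98%, in 23 monkeys. No other position was measured for 48244 bp above this pair, and the nearest below lay 58 bp away. At chromosome 12, 108051521 and 108051522 (12q23.3), the order was turned round: the second position averaged 2.87% ± 2.42 and the first 97.4% ± 2.29 (SD, n = 23 each), with a neighbour 22 bp above and none for 12531 bp below. The pairs at chromosome 1, 208215581 (1q32.2) and chromosome 9, 71836157 (9q21.11) had the same build, with low means of 3.52% and 3.30% and high means of 98.0% and 97.7%. In each of these pairs the gap was over 50 points in all 23 monkeys.

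The widest gap among these complete members had another setting. At chromosome 1, 182236688 and 182236689 (1q25.3), the first position was exactly 0 in all 23 monkeys, and the second averaged 97.7% ± 3.85 (SD, n = 23), from 85% to 100%. Measured positions lay on both sides of it, 87 bp below and 4 bp above, and the 4 other positions within 100 bp averaged 22.3%.

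Discordance was shared by the monkeys. The rule largely sets this, because it selected pairs on the mean over these same monkeys, so the shares below are a description. In 69264 cases a member had both values in a monkey, and the high position exceeded the low one by more than 50 points in 98.4% of them. The gap was over 50 points in every monkey with both values at 2729 members (79.6%). The range over monkeys had a median of 15 points at the low position and 21 points at the high position, and the SD a median of 4.21 and 5.76 points. At positions of pairs low at both the median SD was 1.62 points, and at pairs high at both 5.34 points.

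Exceptions came mostly from 1 library. Low positions stood over 80% in 44 cases, of which 31 were in right 9, and high positions under 20% in 79 cases, of which 72 were in right 9. No member had more than 1 monkey of either kind. Without right 9, 13 members had a low position over 80% in a monkey and 7 a high position under 20%. The share of members with a gap over 50 points in every monkey was 83.4% without right 9.

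The members with the widest range show this library. Many members tied at 100 points, and the first by chromosome were taken. At chromosome 4, 183721509 (4q35.1), the low position was 100% in right 9 and at most 12% in the other monkeys. At chromosome 1, 22149886 (1p36.12), the high position at 22149887 was 0 in right 9 and 89% or more in the others. Of the 5 members with the widest range at the low position, 4 had their extreme in right 9, and of the 5 at the high position all did. The exception, at chromosome 1, 9702557 and 9702558 (1p36.22), had 100% at its low position in right 12, where the next highest level was 33%, and its high position reached down to 33% in right 1.

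Members with neighbours on both sides varied more. Among these 518, the low position had a median mean of 8.33% and a median range of 26 points, against 4.64% and 14 points in the 2867 members at the end of a run. The gap was over 50 points in every monkey at 56.2% of the members with neighbours on both sides and at 83.6% of those at a run's end. Their nearest neighbour was on the side of the low position in 265 and on the side of the high position in 242. The longest chain of members within 300 bp of each other lay among them for the most part. It held 6 pairs on chromosome 7 between 70254831 and 70255558 (7q11.22), with low means of 11.7% to 19.7% and high means of 86.3% to 97.9%. In 5 of these pairs neighbours lay on both sides.

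**Figure D4:**
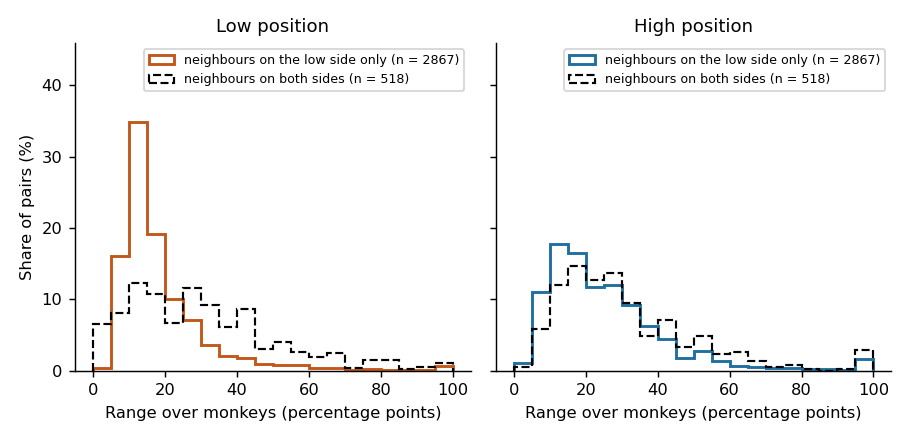
Share of members (%) by range over monkeys (percentage points, 5-point bins) at the low and at the high position, for the 2867 members with neighbours on the low side only and the 518 with neighbours on both sides. At the low position the dashed curve of the 518 reaches further to the right, with a median of 26 against 14 points.

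The levels per monkey were close together. The mean over low positions was 5.92% ± 0.794 (SD, n = 23), from 4.82% in right 9 to 8.25% in right 12. Over high positions it was 91.3% ± 1.36 (SD, n = 23), from 88.4% in left 11 to 93.6% in left 4. The low positions of discordant pairs averaged higher than the positions of pairs low at both in 23 of 23 monkeys, where those pairs gave 2.60% ± 0.513 (SD, n = 23). The high positions averaged below those of pairs high at both, 92.4% ± 0.686 (SD, n = 23), in 20 monkeys. All these sets were selected on means over the same monkeys, so the counts of monkeys are a description and no separate support. Right monkeys averaged 5.94% ± 0.904 (SD, n = 12) at low positions and left monkeys 5.90% ± 0.698 (SD, n = 11). Monkeys with identifiers starting with r averaged 5.76% ± 0.989 (SD, n = 12) and those starting with B 6.10% ± 0.498 (SD, n = 11). Each of these differences is smaller than the SD within the groups.

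**Figure D5:**
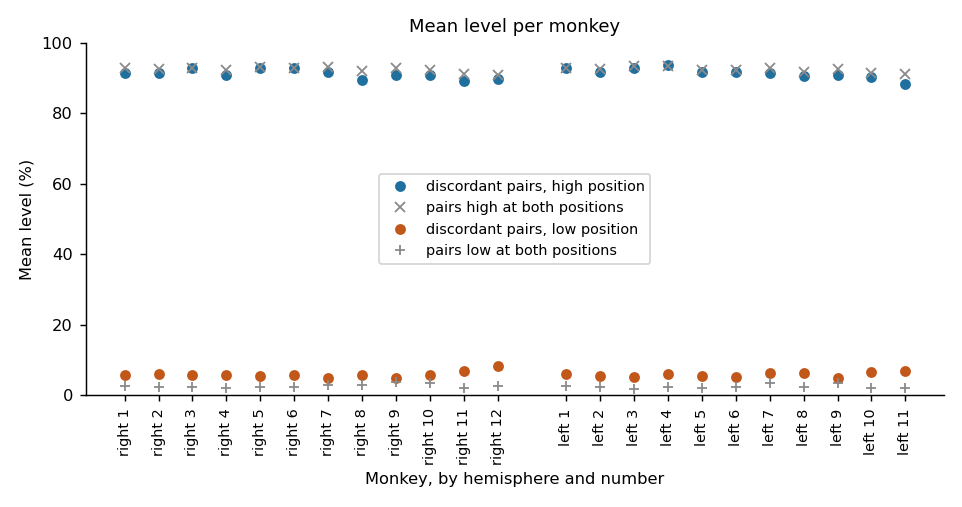
Mean level (%) of the low and high positions of the discordant pairs in each monkey, right hemisphere first, with the pairs that are low or high at both positions as grey marks. Low positions sit between 4.82% and 8.25%, above the pairs low at both, and high positions between 88.4% and 93.6%.

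The study asked which levels vary with anxious temperament, with age as covariate. The limma fit took every position of the table, sex chromosomes included, that had 20 or more values spread over 10 points or more, and 4625 of the 6858 member positions were among the 192151 fitted, 2234 low and 2391 high. No member was called for the score at an adjusted p under 0.05, where the table as a whole gave 0%, with 1 as the lowest adjusted p of a member. Unadjusted p-values under 0.05 were found for 207 members (4.48%), against 3.12% of all positions fitted. The median size of the slope was 1.05 points per score unit in the members and 1.14 in all positions.

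The smallest p belonged to the low position at chromosome 19, 19656306 (19p13.11), whose level ran from 0 to 16% with a median of 3% in 23 monkeys. The 3 monkeys at 9% or more had scores of -0.83 or lower, and the slope was -3.89 ± 0.899 points per score unit (n = 23, error as SE; adjusted p = 1 with limma). At chromosome 11, 10464209 (11p15.4), the low position ran from 4% to 36% with a median of 15%, and its slope was 7.78 ± 2.02 (n = 22, error as SE; adjusted p = 1 with limma). The 3 monkeys at 30% or more had scores from 0.78 to 1.43. The other monkeys with scores in that span, right 1, left 8 and left 6, stood at 23%, 16% and 10%. At chromosome 16, 11316594 (16p13.13), the slope was -2.74 ± 0.712 (n = 22, error as SE; adjusted p = 1 with limma), with levels of 0 to 12%.

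The difference between strands, second position minus first, was fitted against the score in the same way over the 50365 isolated pairs that passed the filter. It gave 0 calls among 2192 members and 0% over all pairs (smallest limma adjusted p = 1). Unadjusted p-values under 0.05 were found for 75 members (3.42%), against 2.86% of all pairs fitted. The leading pair, at chromosome 22, 39884735 and 39884736 (22q13.1), had differences of 10 to 100 points with a median of 76, and its slope on the score was -18.83 ± 4.41 points per unit (n = 20, error as SE; adjusted p = 1 with limma). Its low position averaged just under the threshold, 20.0% ± 19.3 (SD, n = 22). Its lowest difference, 10 points, was in right 12 and the next, 36 points, in left 11. Right 12 and left 11 had scores of 0.89 and 1.43. Their mean levels over all low positions, 8.25% and 7.06%, were the highest of all monkeys. Next came the pairs at chromosome 19, 19656305, with -4.32 ± 1.18 (SE, n = 23), and at chromosome 13, 60228301 (13q21.2), with 7.33 ± 2.05 (SE, n = 21).

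Age, the covariate, called 2 members of the 4625 (0.0432%), with 0.0531% called over all positions. The low position at chromosome 16, 3614206 (16p13.3), stood at 22% in left 1, the oldest monkey, and at 9% or less in the others, with a slope of 19.43 ± 3.17 points per year (n = 20, error as SE; adjusted p = 0.0204 with limma). Without left 1 its range fell under 10 points and it was no longer fitted. The high position at chromosome 10, 29282680 (10p12.1), was 0 in left 1 and 68% to 100% in the others, and its slope was -69.49 ± 11.7 points per year (n = 22, error as SE; adjusted p = 0.0217 with limma). Without left 1 the slope was -9.67 (limma adjusted p = 1). At chromosome 4, 17749469 (4p15.32), a high position of 16% in left 1 and at least 50% elsewhere gave -62.18 ± 11.9 (n = 21, error as SE; adjusted p = 0.0508 with limma), and -25.38 without left 1 (adjusted p = 1 with limma). Neither call remained without left 1, on the logit scale, in either identifier series alone or with the series as a covariate. With that covariate the limma adjusted p was 0.0628 at chromosome 16 and 0.0635 at chromosome 10. In the r series alone the chromosome 16 levels ran from 0 to 8%, and the position was not fitted. Ages ran from 1.18 to 1.45 years in the r series and from 1.10 to 2.13 in the B series, which holds left 1. The chromosome 16 call also ended without the variance trend (adjusted p = 0.0526) and with a range of at least 20 points (adjusted p = 0.0888). Unadjusted p-values under 0.05 were found for 155 members (3.35%), against 4.06% of all positions. Their slopes were positive at 78 and negative at 11 low positions, and positive at 36 and negative at 30 high positions. Over all fitted positions with such a p, 5254 slopes were positive and 2547 negative. These counts rest on a fit that includes left 1, the oldest monkey.

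Between right and left monkeys 0 of 4625 members were called with limma, where 0% of all positions were, and the lowest adjusted p stood at 0.93. Unadjusted p-values under 0.05 were found for 197 members (4.26%), against 3.48% of all positions. Among them, 33 low positions were higher and 84 lower in right monkeys, and 49 high positions were higher and 31 lower. Over all fitted positions with such a p, 3630 were higher and 3048 lower in right monkeys. No test was made of these directions. Low positions were exactly 0 at a mean of 30.6% ± 17.2 (SD, n = 12) in right and 22.7% ± 10.3 (SD, n = 11) in left monkeys. High positions were exactly 100% at 22.8% ± 15.6 and 17.5% ± 10.6. Whether this bears on the directions was not tested. The leading member was the low position at chromosome 10, 108934212 (10q25.1), which ran from 0 to 31% with a median of 0 in right monkeys and from 0 to 68% with a median of 29.5% in left monkeys. It was exactly 0 in 8 of 11 right monkeys and 24% or more in 9 of 10 left monkeys. The difference, right minus left, was -27.22 ± 5.67 points (n = 21, error as SE; adjusted p = 0.93 with limma). At chromosome 15, 86686939 (15q25.3), right monkeys averaged 1.08% ± 1.98 (SD, n = 12) and left monkeys 6.36% ± 3.20 (SD, n = 11), a difference of -5.34 ± 1.25 points (error as SE; adjusted p = 0.93 with limma). The high position at chromosome 1, 117150627 (1p13.1), averaged 95% ± 5.02 (SD, n = 11) in right and 80.3% ± 12.0 (SD, n = 9) in left monkeys, with a difference of 15.37 ± 3.68 points (error as SE; adjusted p = 0.93 with limma). Groups overlapped at each of these positions.

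Between the identifier series, r minus B, 0 of 4625 members were called with limma, where 0% of all positions were, with a lowest adjusted p of 0.941. Unadjusted p-values under 0.05 were found for 190 members (4.11%), against 3.43% of all positions. Among them, 14 low positions were higher and 65 lower in r monkeys, and 87 high positions were higher and 24 lower. Over all fitted positions with such a p, 4070 were higher and 2525 lower in r monkeys. The median difference was -0.24 points at low positions, 0.51 at high positions and 0.57 over all positions fitted, and no test was made of these directions. At chromosome 14, 104737181 (14q32.33), the high position averaged 89.3% ± 6.13 (SD, n = 10) in r monkeys and 75% ± 12.8 (SD, n = 10) in B monkeys, a difference of 17.19 ± 4.58 points after score and age (error as SE; adjusted p = 0.941 with limma). The other members with the smallest p were high positions at chromosome 6, 33424075 (6p21.32), with 7.51 ± 2.09 points, and chromosome 19, 19312698 (19p13.11), with 7.60 ± 2.12 points (n = 22 each, error as SE; adjusted p = 0.941 with limma). The libraries with the most missing values, left 3 and right 9, are both in the r series. Both values were present at a mean of 83.5% ± 21.6 of members (SD, n = 12) in r monkeys. In B monkeys the mean was 92.5% ± 7.67 (SD, n = 11). Low positions were exactly 0 at a mean of 30.5% ± 18.2 (SD, n = 12) in r and 22.9% ± 8.13 (SD, n = 11) in B monkeys. High positions were exactly 100% at 23.4% ± 17.3 and 16.8% ± 6.66. Whether this bears on the directions was not tested.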

How the data were processed

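The table that the authors deposited gives each methylation level as a fraction, with 1 column for each monkey. Bismark 0.11.1 and the build hg19 are named in the submitters' processing notes. The sources used here say nothing of coverage filters, read trimming, read length or how the strands were treated. The table gives no read counts, so depth is unknown and no interval was computed.

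Levels were multiplied by 100. The members, neighbour distance, run limit and named pairs were chosen with earlier results of these data known. Named were the pairs with the widest gap, the widest ranges, the smallest p in each comparison, those nearest a threshold and the longest chain. Pairs, places and runs were computed with numpy 2.4.6 and pandas 2.3.3 in Python 3.11.15, and figures drawn with matplotlib 3.10.9. Linear models used limma 3.58.1 in R 4.3.3 with a variance trend, score and age as terms, hemisphere or identifier series added for those comparisons, and the Benjamini-Hochberg adjustment over all positions or pairs fitted. Tests were 2-sided. Each fit used the monkeys that had a value. The fits were checked against limma and tested on simulated data. P-values measure the spread between monkeys. Chromosome bands are those of hg19 in circlize 0.4.16. No gene annotation or sequence of that build was used here.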

Additional observations from a re-analysis of the deposited data

Results flagged for a closer look

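The rule leaves out the X chromosome. There, 108 of 3509 isolated pairs were discordant by the same thresholds (3.08%), with the first position low in 58 and the second in 50. Neighbours lay only on the side of the low position in 90 of them and only on the side of the high position in 1. These pairs were picked out because they are not among the members described above. Positions of that chromosome entered the limma fits over the whole table.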

How the results depend on the processing

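The number of discordant pairs was 1906 with thresholds of 10% and 90%, and 452 when values in all 23 monkeys were required. In that last setting 29474 isolated pairs qualified, and the discordant share was 1.53%, against 3.64% in the main setting. Values in every monkey were present at 13.2% of discordant pairs and at 32.0% of the other pairs. Leaving out one monkey at a time gave 3393 to 3475 discordant pairs. The share of members with neighbours on the side of the low position only stayed between 76.8% and 90.8% under the other alternatives. These included neighbour distances of 100 and 1000 bp, chosen after seeing the data, at 80.4% and 78.3%. Counts without right 9 were likewise added after seeing the data. Member positions called for age numbered 0 on the logit scale, 1 without the variance trend, 4 without left 3 and right 9, 0 without left 1, 0 with identifier series as a covariate, and 0 in each series alone, and, leaving out one monkey at a time, between 0 and 4 (0 without left 1; 4 without left 3, right 3, right 4 or right 11). The logit scale, the fit without the variance trend and the series covariate kept all 23 monkeys. The cause of these changes was not tested. The slope on age at chromosome 4, 17749469, changed sign in the r series alone (10.38 points per year; limma adjusted p = 1). For score, hemisphere, identifier series and strand difference, 0 members were called under each alternative run. A coverage minimum was not run, because the table holds no coverage. No paired analysis was possible because right and left samples come from different animals and their numbers were given in accession order. Unknown depth limits every single level.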

Other observations

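The low level at the inner position of a run's end was not limited to the discordant pairs. Pairs with neighbours within 300 bp on 1 side only and an outer level between 20% and 80% numbered 3702. Their outer position had a median level of 53.1% and their inner position 3.96%, and the inner position was under 20% in 81.0% of them. Where the outer position was under 20%, in 8951 pairs, the medians were 4.32% outside and 1.74% inside. These pairs are part of the pairs with neighbours on 1 side that were set beside the members above, and nearly all of those with an outer level under 20% (8913) were low at both positions. No test was made.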
